A study of Mus musculus with 36 samples.

Results

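The interleukin receptor genes of the mouse were followed in the hypothalamus of mice injected with TNFα, IL-6 or both. They were taken by symbol, as every gene whose annotated symbol starts with Il, a number and r, and 35 of the 18820 genes with a transcript cluster of their own were members. One further gene that fits the pattern was set aside and not analysed here. Others, such as Il2rg, Il1rl1, Il11ra1 and Il12rb1, had no transcript cluster annotated with their symbol alone and are not covered. Il1rn, which encodes a secreted antagonist of the IL-1 receptor and not a receptor, is a member by its symbol. A transcript cluster is a probe set of the array for 1 gene, and where a gene had several (3 for Il20rb, 2 each for Il22ra1 and Il17rd) the one with the highest mean was used.

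All mice were male C57BL/6 mice that received 1 intraperitoneal injection of 50 µl and were killed 5 h later, and each array holds the hypothalamic RNA of 1 mouse. The TNF group received 15 pg TNFα, the IL-6 Low group 50 pg IL-6 and the IL-6 High group 800 pg IL-6. The TNF + IL-6 Low group received 15 pg TNFα with 50 pg IL-6, the TNF + IL-6 High group 15 pg TNFα with 800 pg IL-6, and Control mice saline. The sample labels call the TNFα dose low, while the methods give 1 dose only. Each group had 6 arrays, except TNF with 5, since TNF replicate 4 was left out. That array had a lower quartile of 5.49 and an upper quartile of 6.65 over all clusters (log2 intensity), whereas the other 35 had lower quartiles of 3.99 to 4.17 and upper quartiles of 7.33 to 7.54. All levels are log2 intensities as deposited, and errors are SD over the arrays of a group. The hypothalamus was whole tissue, so fewer cells of a type and less RNA per cell cannot be told apart. The 14 measured markers of the hypothalamus were above the minimum intensity on all 35 arrays, except Crh on 34.

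Interleukin receptors are built from subunits that bind the ligand and subunits that carry the signal into the cell. Receptors of the IL-1 and IL-17 families signal through adaptor proteins to NF-κB, while the receptors of most other interleukins signal through Janus kinases and STAT factors. In the brain, IL-1 acting on its receptor is known to cause fever, sickness behaviour and loss of appetite. Endothelial cells, glia and some neurons carry such receptors.

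Promoter windows, from 250 bases before to 50 after the annotated start, were at hand for 29 of the 35 members (35 windows, RefSeq, GRCm38.p6). They were searched on both strands for GGGNNNTTCC, a sequence like the binding motif of NF-κB, and for TTCNNNGAA, a sequence like that of STAT factors. The first stood in 9 of the 35 windows, of the 7 members Il17rc, Il1r1, Il1rn, Il22ra1, Il23r, Il2ra and Il4ra, and in 5.56% of the 32851 windows of all genes. The second stood in 5 windows, of Il12rb2, Il18r1, Il1r2, Il31ra and Il7r, and in 8.3% of all windows. Some windows of 1 gene overlap, as a pair of those of Il1rn do, and the same match is counted in both windows of that pair. The percentages are shares of windows. Shares of all genes were not computed, so the counts of members have none beside them. The stricter TTCCNGGAA, which is a form of the second, stood only in the window of Il31ra among the members and in 1.15% of all windows.

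The windows of the 3 members with an unadjusted p under 0.05 in a treated group and of Il1rap are shown, since the results below turn on these 4 genes. Each runs 5′ to 3′ on the strand of the gene, and capitals mark a motif match. That of Il1r2 lies at chr1:40085843-40086142 on the plus strand, with the match like STAT at -111 to -103 from the start. That of Il17rc lies at chr6:113471205-113471504 on the plus strand, with the match like NF-κB, read on the other strand, at -236 to -227. Those of Il1rapl2, at chrX:137570504-137570803, and Il1rap, at chr16:26581455-26581754, are on the plus strand and hold no match.
Il1r2: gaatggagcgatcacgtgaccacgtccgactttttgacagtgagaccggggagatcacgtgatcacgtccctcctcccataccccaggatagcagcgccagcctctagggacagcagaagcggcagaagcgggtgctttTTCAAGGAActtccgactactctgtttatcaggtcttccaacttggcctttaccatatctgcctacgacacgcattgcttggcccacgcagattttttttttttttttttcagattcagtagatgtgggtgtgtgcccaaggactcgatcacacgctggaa
Il17rc: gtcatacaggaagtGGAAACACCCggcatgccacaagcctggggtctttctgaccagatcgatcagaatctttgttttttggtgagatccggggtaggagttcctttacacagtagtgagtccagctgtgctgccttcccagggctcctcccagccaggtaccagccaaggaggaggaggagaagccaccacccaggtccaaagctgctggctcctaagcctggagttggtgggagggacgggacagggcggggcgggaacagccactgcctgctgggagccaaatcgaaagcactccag
Il1rapl2: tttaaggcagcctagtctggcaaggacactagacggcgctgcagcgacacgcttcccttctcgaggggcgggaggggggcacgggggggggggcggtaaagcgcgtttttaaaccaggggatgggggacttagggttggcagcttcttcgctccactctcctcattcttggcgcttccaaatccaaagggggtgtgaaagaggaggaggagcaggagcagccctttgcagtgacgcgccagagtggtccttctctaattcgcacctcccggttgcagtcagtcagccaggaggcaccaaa
Il1rap: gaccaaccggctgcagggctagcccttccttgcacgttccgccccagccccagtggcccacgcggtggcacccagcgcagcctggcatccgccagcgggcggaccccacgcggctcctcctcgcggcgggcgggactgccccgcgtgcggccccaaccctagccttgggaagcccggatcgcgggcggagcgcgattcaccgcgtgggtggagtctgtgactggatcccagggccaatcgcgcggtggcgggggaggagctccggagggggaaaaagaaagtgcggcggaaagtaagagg

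In these hypothalami 22 of the 35 members passed the minimum, an intensity over 20 (log2 4.32) on at least 3 arrays, and were tested among 15049 genes. Of these 22, 18 were over 20 on all 35 arrays. Il9r was over 20 on 31 arrays, Il1rn on 23, Il21r on 20 and Il1r2 on 9. The 13 that did not pass were Il18r1 and Il18rap, the chains of the IL-18 receptor, and Il1rl2, the receptor of IL-36, of the IL-1 family. Il2ra and Il2rb, which bind IL-2, Il7r, Il13ra2, a decoy receptor of IL-13, and Il5ra did not pass either. The same held for Il12rb2, Il23r and Il31ra, for Il20ra and for Il22ra2, a soluble binding protein of IL-22. Il31ra was over 20 on 1 array and the other 12 on none.

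**Figure D1:**
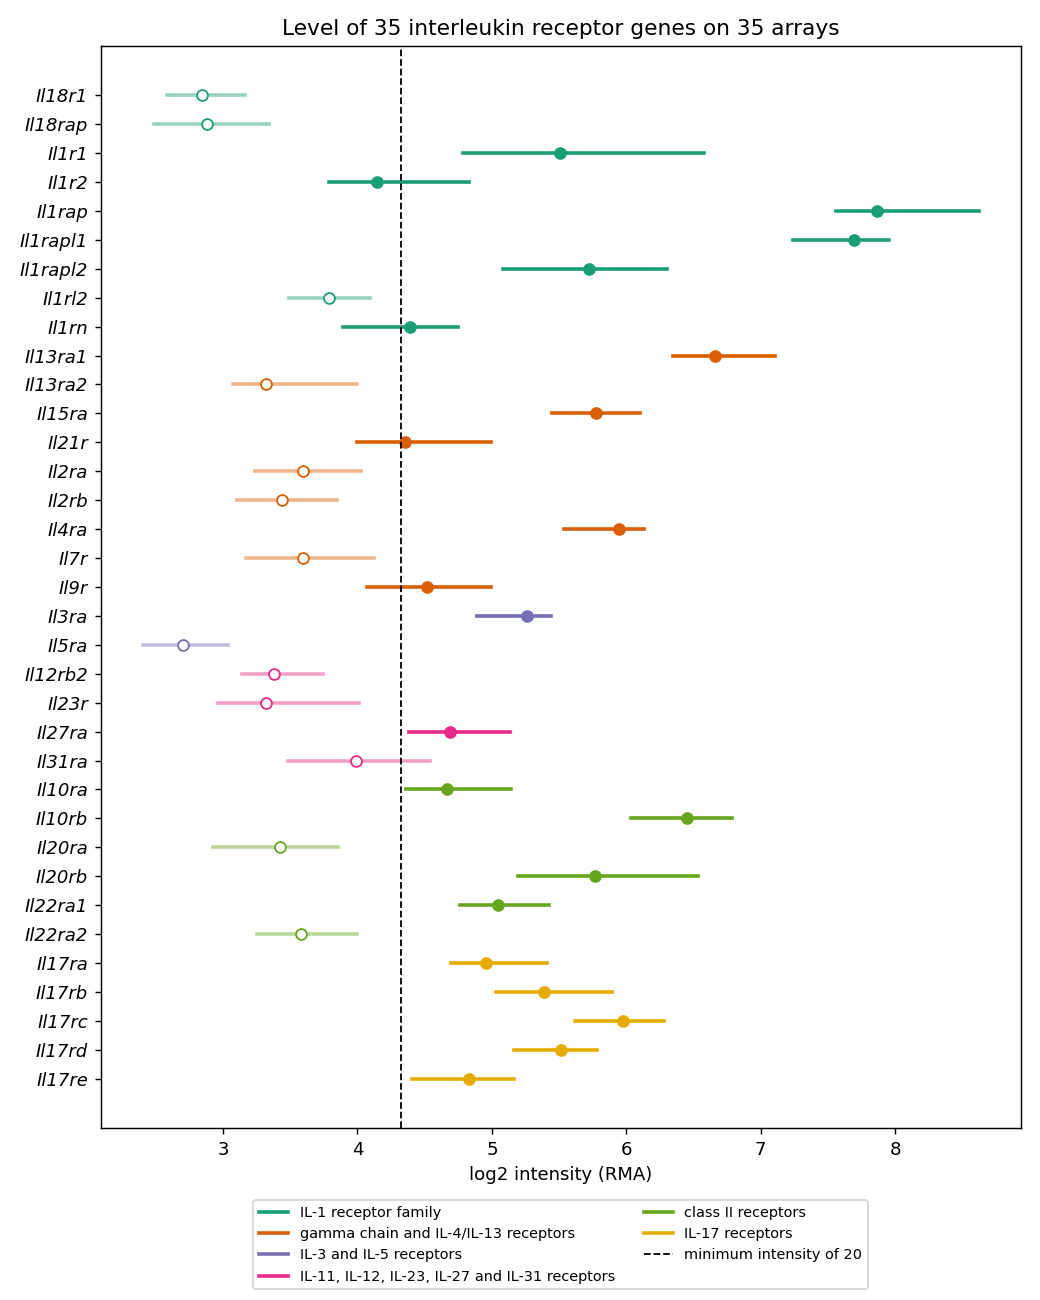
Log2 intensity of the 35 interleukin receptor genes, by family, over 35 arrays: lines span the lowest to the highest array, points are medians, open points are the 13 genes below the minimum, and the dashed line is the minimum of 20. Each gene is to be read against the line, not against other genes, whose probes differ. Il1r2, Il1rn, Il21r and Il9r are tested genes that cross the line.

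None of the 22 tested members passed the test in any treated group. At an adjusted p under 0.05 (limma, Benjamini-Hochberg over all 15049 genes) 0 members were called in each of the 5 treated groups against Control, as were 0% of all genes in each. The count was also 0 for the mean of the 5 treated groups, and in the F test of any difference among the 6 groups, again with 0% of all genes. All 95% intervals of the members' differences lay between -0.67 and 0.63 on the log2 scale, and both ends belong to Il1r1. The median SE of a member's difference was 0.11 in each group, so the number of arrays limits what could be seen.

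At an unadjusted p under 0.05, 1 member, Il1rapl2, was counted in TNF (5.29% of all genes), 1, Il17rc, in IL-6 Low (1.4%) and 1, Il1r2, in IL-6 High (2.07%). The count was 0 in TNF + IL-6 Low (9.58%) and was also 0 in TNF + IL-6 High (2.05%). It was 1, Il17rc, in the mean of the 5 treated groups (3.08%) and 0 in the F test (3.01%). Each single count is 4.55% of the 22 members. All of these comparisons share the same 6 Control arrays.

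**Figure D2:**
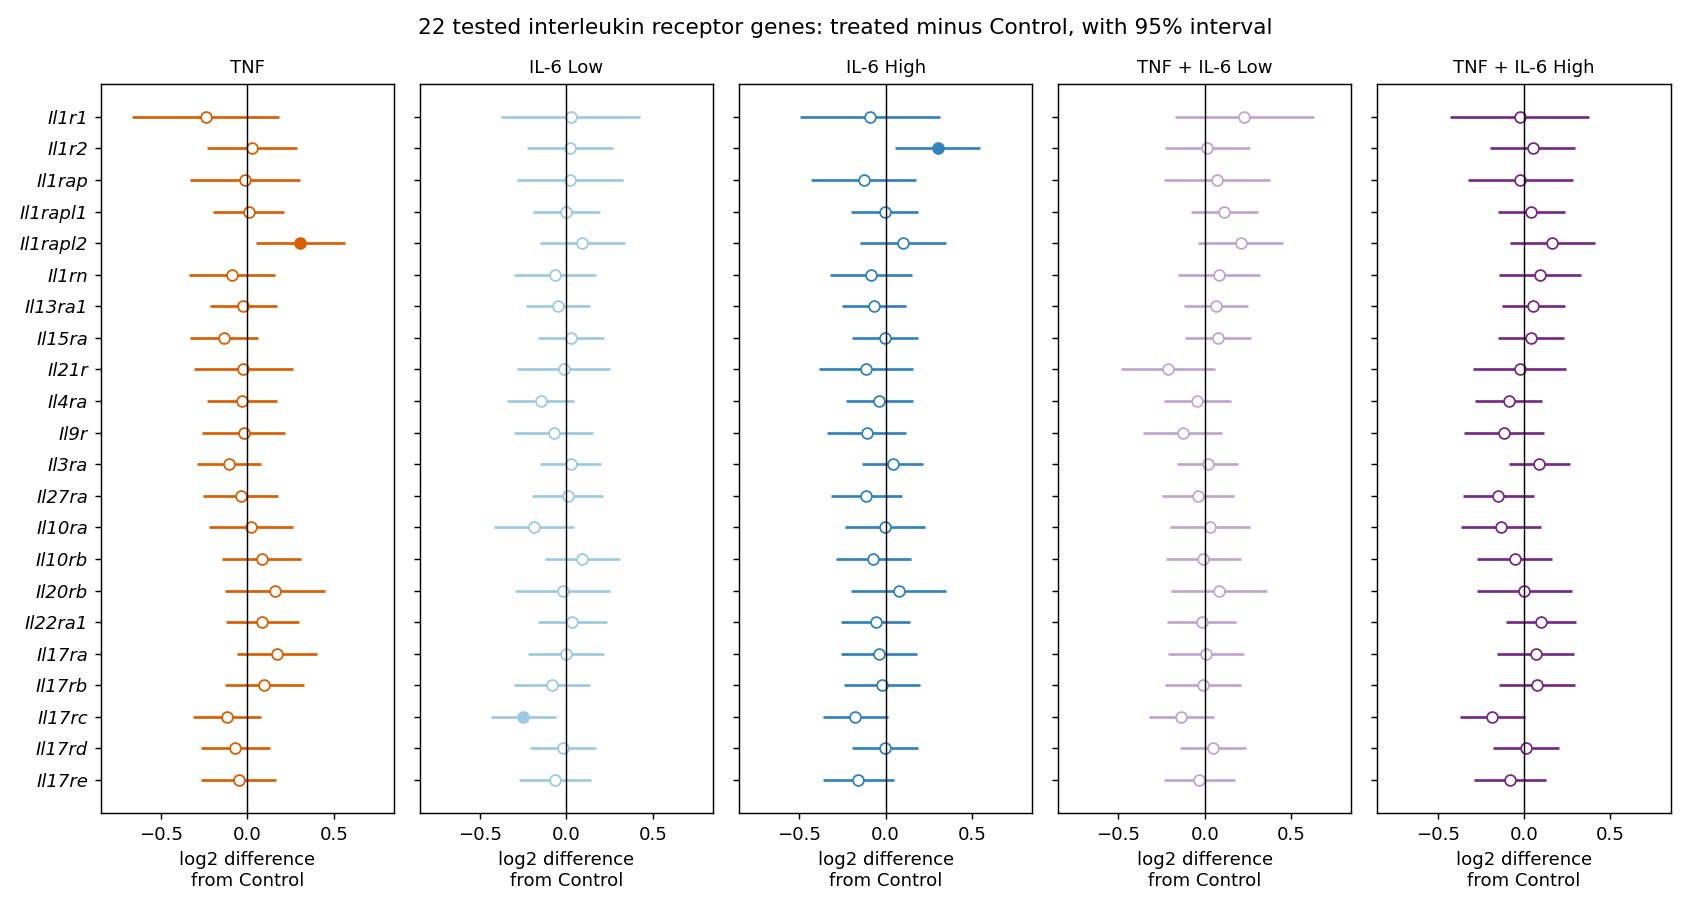
Log2 difference of the 22 tested members between each treated group and Control, with 95% intervals from limma. Filled points have an unadjusted p under 0.05 (Il1rapl2 in TNF, Il17rc in IL-6 Low, Il1r2 in IL-6 High) and no point has an adjusted p under 0.05.

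As a family the members lay on both sides of Control. The median difference over the 22 members was -0.02 in TNF, against 0.01 over all tested genes, with 9 members higher and 13 lower. It was -0.01 in IL-6 Low (9 higher, 13 lower), while IL-6 High had -0.05 (4 higher, 18 lower), against -0.01 and 0.00 over all genes. In TNF + IL-6 Low it was 0.02 (13 higher, 9 lower) and in TNF + IL-6 High 0.01 (12 higher, 10 lower), against -0.02 and -0.02 over all genes. IL-6 High thus had the most uneven split, with 18.2% of the members and 52.6% of all genes higher than Control. No member had a treated group clear of Control: the count of members without overlap was 0 for the TNF arrays (0.246% of all genes), for those of IL-6 Low (0.0664%), for those of IL-6 High (0.0332%), for those of TNF + IL-6 Low (0.193%) and for those of TNF + IL-6 High (0.159%).

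Among the receptors of the IL-1 family, the accessory-like protein gene Il1rapl2 was highest in the TNF group. Il1rapl2 belongs to the same family as the accessory protein of the IL-1 receptor, and its relative Il1rapl1 is known for a role at synapses. On the 5 TNF arrays Il1rapl2 had 5.76, 6.30, 5.87, 5.91 and 5.65. The lowest, median and highest were 5.44, 5.71 and 6.00 with IL-6 Low, 5.57, 5.67 and 5.89 with IL-6 High, and 5.50, 5.81 and 6.04 with TNF + IL-6 Low. They were 5.63, 5.75 and 5.95 with TNF + IL-6 High, and 5.08, 5.69 and 5.89 in Control. The TNF arrays overlapped Control, with TNF replicates 2 and 5 above its highest array, and Control replicates 5 and 1 (5.08 and 5.35) stood below all arrays of the treated groups. TNF replicate 2, the highest array, also had the highest cerebellum marker score, 7.86, against 5.93 to 6.77 on the other 34 arrays, and 9 of 10 cerebellum markers were higher in TNF than in Control, with 0 past the adjusted test. The part of these markers in the level of Il1rapl2 was not tested. Means were 5.90 ± 0.25 in TNF and 5.59 ± 0.31 in Control, a log2 difference of 0.31 (SE 0.13, adjusted p = 0.911). In TNF + IL-6 Low it was the member of smallest p, with a difference of 0.21 (SE 0.12, adjusted p = 0.548). The unadjusted p in TNF was above 0.05 without TNF replicate 2, Control replicate 1 or Control replicate 5, and the difference then lay no lower than 0.21. Control replicate 5 carries a mouse number that differs from the one in its array name, and was kept as Control by title.

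Il1r2 encodes the decoy receptor of IL-1, which binds IL-1 without passing on a signal. Its lowest, median and highest values were 4.17, 4.36 and 4.83 in IL-6 High, against 3.79, 4.16 and 4.23 in Control. On the TNF arrays it had 4.04, 3.98, 4.04, 4.58 and 3.97, and in IL-6 Low the values ran from 3.88 to 4.40 with a median of 4.05. TNF + IL-6 Low spanned 3.87 to 4.39 (median 4.08), and the arrays of TNF + IL-6 High spanned 3.92 to 4.41 (median 4.12). Of the 9 arrays over the minimum of log2 4.32, 3 were of IL-6 High and 0 of Control, so most of these values lie in the range in which genes were not tested. The difference in IL-6 High was 0.30 (SE 0.12, adjusted p = 1.00), and the mean was 4.40 ± 0.24 in IL-6 High and 4.10 ± 0.17 in Control. The unadjusted p was above 0.05 without IL-6 High replicate 3, when the difference was 0.22, or without Control replicate 1.

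The receptor proper, Il1r1, and Il1rap, the accessory protein that it needs to signal, varied most among the mice of a group. Il1r1 averaged 5.29 ± 0.36 in the TNF mice, 5.55 ± 0.35 with IL-6 Low, 5.44 ± 0.30 with IL-6 High, 5.76 ± 0.44 with TNF + IL-6 Low, 5.51 ± 0.30 with TNF + IL-6 High and 5.53 ± 0.48 in Control. The highest array, TNF + IL-6 Low replicate 3 with 6.58, had a pituitary marker score of 10.28, against 5.08 to 7.02 on the other 34 arrays. Without that array the difference of Il1r1 in TNF + IL-6 Low was 0.07, against 0.23 with it. The part of the pituitary markers in this difference was not tested. The SD of Il1r1 within groups, 0.38, was the highest of the 35 members, and the SD of Il1rap was 0.28. Il1rap averaged 7.96 ± 0.20 in the TNF mice, 7.99 ± 0.23 with IL-6 Low, 7.85 ± 0.26 with IL-6 High, 8.05 ± 0.27 with TNF + IL-6 Low, 7.95 ± 0.36 with TNF + IL-6 High and 7.97 ± 0.33 in Control. For both genes the differences from Control, at most 0.24 in size, were smaller than this spread. Il1rapl1 had group means of 7.62 to 7.74 in treated groups and 7.63 in Control, and the antagonist Il1rn means of 4.32 to 4.50 in treated groups and 4.41 in Control.

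Among the IL-17 receptors, Il17rc had the lowest p of the members in IL-6 Low. Il17rc encodes the subunit that pairs with IL-17RA to bind IL-17A and IL-17F. The lowest, median and highest values were 5.62, 5.88 and 6.01 in IL-6 Low, against 5.96, 6.08 and 6.28 in Control. On the TNF arrays Il17rc had 6.06, 6.09, 6.08, 5.86 and 5.80. The values spanned 5.74 to 6.16 (median 5.90) in IL-6 High, 5.68 to 6.26 (median 5.96) in TNF + IL-6 Low and 5.75 to 6.06 (median 5.91) in TNF + IL-6 High. All 5 treated means, 5.85 to 5.98, were lower than the Control mean of 6.09, and each treated group overlapped Control. The difference was -0.25 in IL-6 Low (SE 0.09, adjusted p = 1.00), -0.18 in TNF + IL-6 High and -0.18 in IL-6 High. The mean of the 5 treated groups was 5.92 against 6.09 in Control, a difference of -0.17 (SE 0.07, adjusted p = 1.00). Its unadjusted p, 0.0229, was above 0.05 without Control replicate 1 or Control replicate 4, with the difference at -0.13 without Control replicate 1.

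The other IL-17 receptors had no p under 0.05 in any treated group. Il17ra, the subunit shared by most receptors of this family, averaged 5.10 ± 0.25 in TNF and 4.93 ± 0.13 in Control, the largest difference of the 4 at 0.17 (SE 0.11, adjusted p = 0.911). Il17rb, which binds IL-25, had treated means of 5.31 to 5.49 and a Control mean of 5.39. Il17rd lay between 5.45 and 5.56 in treated groups, with 5.52 in Control. Il17re, a receptor of IL-17C, was between 4.73 and 4.85 in treated groups and at 4.89 in Control.

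**Figure D3:**
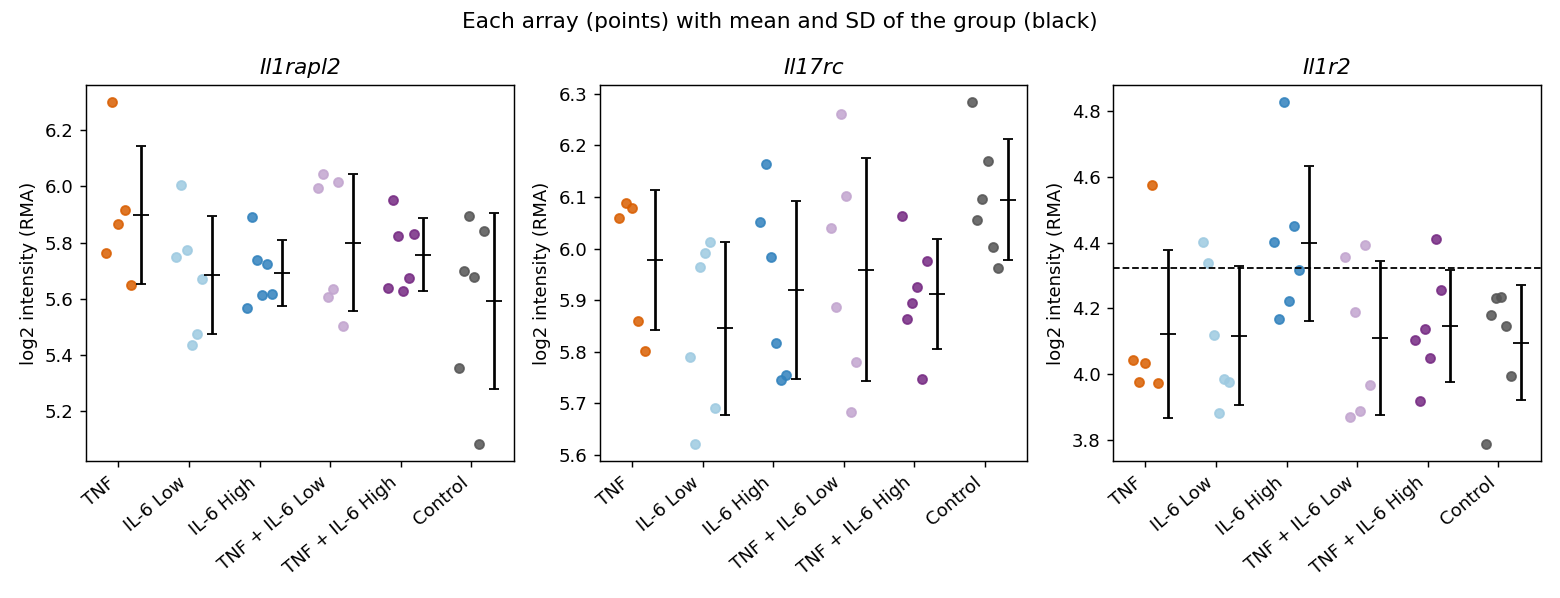
Log2 intensity of Il1rapl2, Il17rc and Il1r2 on each of 35 arrays, with group means and SDs in black. The dashed line in the last panel is the minimum intensity of 20, and in every panel each treated group overlaps Control.

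The receptors of IL-4, IL-13 and the cytokines of the common gamma chain had no unadjusted p under 0.05 in any treated group. Il4ra, the chain that IL-4 and IL-13 share, averaged 5.82 to 5.94 in treated groups and 5.97 in Control. Il13ra1, its partner for IL-13, averaged 6.60 to 6.74 and 6.67, and Il15ra, which presents IL-15, 5.63 to 5.84 and 5.76, in treated groups and Control. Il9r had treated means of 4.48 to 4.59 and a Control mean of 4.61. Il21r averaged 4.25 ± 0.21 in TNF + IL-6 Low and 4.46 ± 0.13 in Control, with a difference of -0.21 (SE 0.13, adjusted p = 0.572), and 4.35 to 4.45 in the other treated groups.

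The remaining members were the receptors of IL-3 and IL-27 and those of the IL-10 family. Il3ra had treated means of 5.10 to 5.30 and a Control mean of 5.21, and Il27ra 4.63 to 4.78 and 4.77. Il10ra, the ligand-binding chain of the IL-10 receptor, averaged 4.58 ± 0.15 in IL-6 Low and 4.76 ± 0.25 in Control (difference -0.19, SE 0.11, adjusted p = 1.00). The shared second chain, Il10rb, had treated means of 6.36 to 6.53 and a Control mean of 6.44. Il20rb averaged 5.90 ± 0.39 in TNF and 5.74 ± 0.14 in Control. TNF replicate 2, the array with the highest cerebellum score, had 6.54 and the other TNF arrays 5.58 to 5.95, and without it the difference was 0.003, against 0.16 with it. Il22ra1, which binds IL-22, averaged 4.97 to 5.13 in treated groups and 5.03 in Control.

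The 6 groups cross TNFα with 3 levels of IL-6, so each cytokine could also be tested over the other. For TNFα against no TNFα, over the 3 IL-6 levels, 0 members (0% of all genes) were called after adjustment and 1, Il1rapl2, had an unadjusted p under 0.05 (5.99%). Its mean was 5.82 with TNFα and 5.66 without, a difference of 0.16 (SE 0.07, adjusted p = 0.804). In this contrast 15 of the 22 members were higher (68.2%, against 45.8% of all genes), with a median of 0.02, against -0.01 over all genes. The unadjusted p of Il1rapl2 was above 0.05 without any 1 of 5 arrays, TNF replicate 2, IL-6 Low replicate 4, TNF + IL-6 Low replicate 2, Control replicate 1 or Control replicate 5, and the difference was lowest, 0.13, without the last of these. For IL-6 High against no IL-6 the counts were 0 (0%) and 0 (1.97%), and Il3ra had the smallest p, with a difference of 0.12 (SE 0.06). For IL-6 High against IL-6 Low the counts were 0 (0%) and 0 (3.71%), and Il1r2 had the smallest p, with means of 4.27 in IL-6 High and 4.11 in IL-6 Low over both TNFα levels. No member had a departure from additive effects of the 2 cytokines that passed the test: 0 were called (0% of all genes), and 0 had an unadjusted p under 0.05 (2.65%). The largest departures were those of Il1r1, 0.45 with IL-6 Low and 0.31 with IL-6 High. The number of arrays limits this test, so it does not show that the effects were additive.

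Other genes of these pathways were counted in lists of known members. In the mean of the 5 treated groups against Control 0 genes of the 4 lists had an adjusted p under 0.05. Of 16 tested interleukin ligand genes, out of 41 listed, 7 were higher and 9 lower, and Ebi3, a subunit of IL-27 and IL-35, had the smallest p, with a log2 difference of 0.17 (SE 0.08). Il34, a ligand of the CSF-1 receptor, was at -0.12, with -0.36 in TNF + IL-6 Low (SE 0.09, adjusted p = 0.511), -0.18 in TNF + IL-6 High and -0.05 to 0.01 in the other treated groups. Il15 was at -0.14 and Il17b at -0.08. Of 14 tested subunits shared with other cytokines and soluble regulators, 2 were higher and 12 lower, with a median of -0.06 against -0.01 over all genes. Csf2rb2, a beta chain of the IL-3 receptor in mice, was at -0.32 (SE 0.10, adjusted p = 1.00), Csf2rb at -0.12, Crlf2, a receptor chain of TSLP, at -0.13 and Il6st, the signal chain gp130, at -0.09. Csf2rb and Csf2rb2 are close copies, so probes of 1 can read the other.

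Downstream of the receptors, 3 of 12 tested adaptor genes of IL-1 and IL-17 signalling were higher and 9 lower. Irak3, an inhibitor of this pathway, was at -0.16, Tollip at -0.06, Traf6 at 0.07 and Tab3 at 0.04. Of 22 tested JAK, STAT and SOCS genes 12 were higher and 10 lower. Jak2 was at 0.11 (SE 0.06), Socs4 at 0.10, Stat3 at -0.13 (SE 0.07) and Stat6 at -0.09.

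No marker of the cells around the brain and of its vessels passed the adjusted test in the mean of the 5 treated groups. The 14 markers of meningeal fibroblasts were all lower in the mean of the 5 treated groups, with a median of -0.32. Their mean level was 6.30 to 6.64 over the treated groups and 6.79 in Control, with single arrays at 5.81 to 7.11 in the treated groups and 5.83 to 7.52 in Control. Of 11 markers of smooth muscle cells and pericytes 8 were lower in the same mean, with a median of -0.16. Within groups, Il17rc had a slope of 0.16 (SE 0.06, adjusted p = 0.455) on the meningeal score. The part of these markers in the difference of Il17rc was not tested. Il1rapl2 and Il1r2 had slopes of -0.15 (SE 0.09) and -0.08 (SE 0.09) on that score.

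To see what the members vary with among mice of the same treatment, each gene was fitted on its group and on a score, the mean of the markers of a cell type minus its group mean. The slope is the log2 change of a gene for a change of 1 in the score. An adjusted p under 0.05 for at least 1 of 10 scores was found for 7 of the 22 members. The share of all genes called for at least 1 score was not computed, so this count has no share beside it. The astrocyte score took 5 members (24.5% of all genes), that of oligodendrocytes 2 (11.6%), and those of microglia and macrophages (21.3%), endothelial cells (18.2%), smooth muscle cells and pericytes (7.53%), tanycytes and ependymal cells (17%) and neurons (21.6%) 1 each. The meningeal (1.26%), pituitary (0.359%) and choroid plexus (0%) scores took 0. For each of the 10 scores the share of the 22 members was no higher than that of all genes, so the calls describe these members and do not set the family apart.

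**Figure D4:**
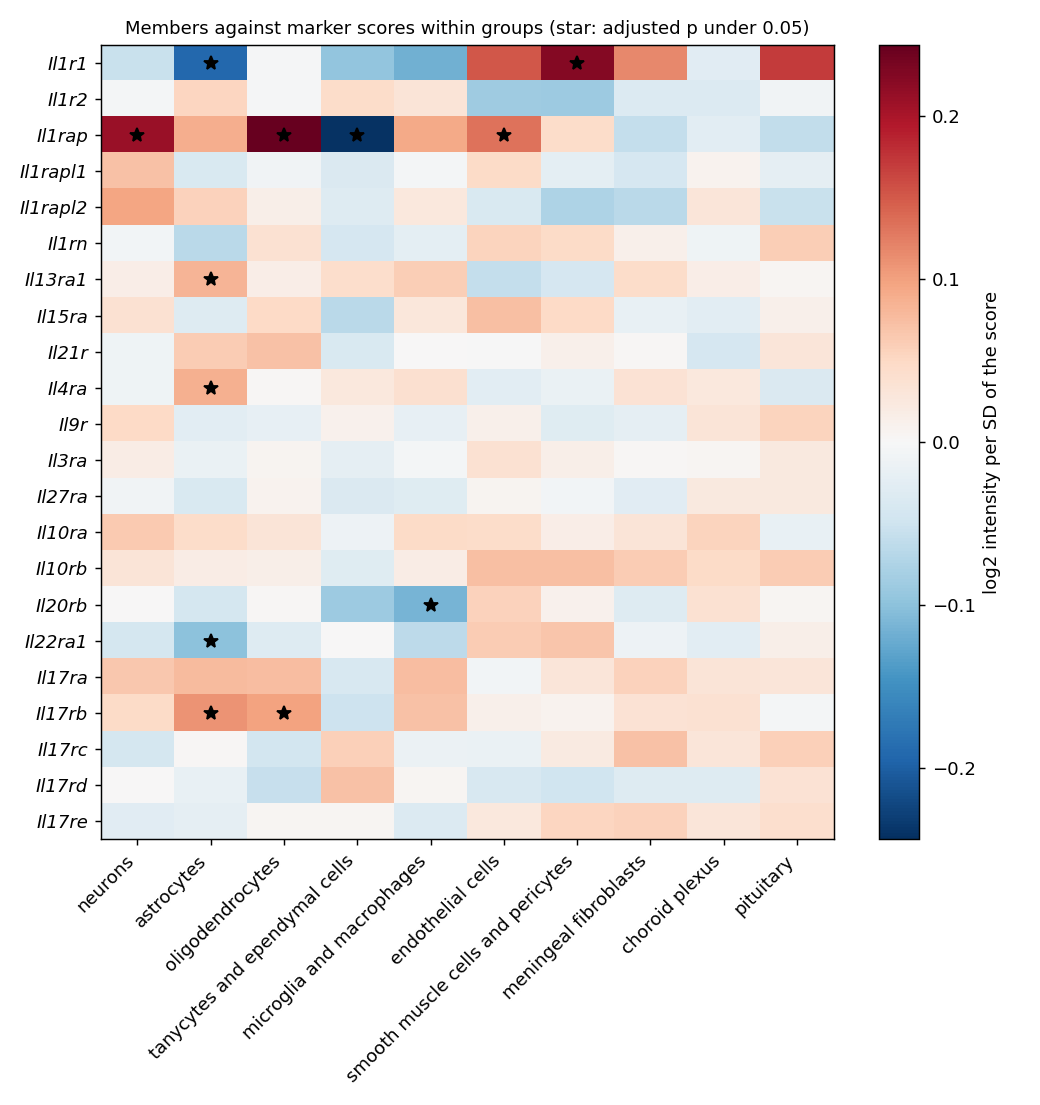
Slope of each of 22 members on 10 marker scores within groups, as log2 intensity per SD of the score (red higher, blue lower). Stars mark an adjusted p under 0.05, and 4 of the 12 stars belong to Il1rap.

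Il1rap had the largest of these slopes per SD of a score. It was higher in mice with a high oligodendrocyte score (slope 0.84, SE 0.09, adjusted p = 2.17e-08) and lower in mice with a high score of tanycytes and ependymal cells (slope -1.51, SE 0.17, adjusted p = 2.28e-07). Tanycytes and ependymal cells line the third ventricle in the hypothalamus, while oligodendrocytes form myelin. Over the 35 arrays, as deviations from group means, Pearson's r was 0.857 (Spearman's rho 0.803) with the oligodendrocyte score and -0.849 (rho -0.780) with that of tanycytes. The permutation p was 1e-05 for both measures in both relations, the smallest that 100000 permutations give. Adjusted over the 4 relations computed it was 2e-05. Both relations were among those called by the score fits on the same arrays, so these p-values are not separate support. Without the 2 arrays farthest from the median of the score, r was 0.828 and -0.769. Within the 4 plate rows of the arrays, E to H in the array names with 6, 12, 11 and 6 arrays, r with the oligodendrocyte score was 0.643, 0.980, 0.860 and 0.942, and r with the tanycyte score -0.696, -0.888, -0.823 and -0.937.

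The 2 scores were themselves related, with r of -0.682 (rho -0.613, permutation p = 4e-05 and 0.00014, adjusted 5.33e-05 and 0.00014) and -0.619 without the 2 farthest arrays. In plate row E, with 6 arrays, that r was 0.0243, and in the other rows -0.857, -0.691 and -0.981. With both scores in 1 fit the slopes of Il1rap were 0.51 on oligodendrocytes (SE 0.10, adjusted p = 0.00082) and -0.88 on tanycytes (SE 0.18, adjusted p = 0.000941). Il1rap was also lower where the markers of the hypothalamus were high, with a slope of -0.88 (SE 0.13, adjusted p = 8.32e-06), a score with which 1 member and 16.8% of all genes moved. Its slopes on the neuron and endothelial scores were 2.02 (SE 0.33, adjusted p = 3.26e-05) and 0.55 (SE 0.18, adjusted p = 0.0313). The part of where the tissue was cut in these relations was not tested. The endothelial call was lost without IL-6 Low replicate 2, IL-6 High replicate 4, TNF + IL-6 High replicate 2 or Control replicate 5, with an adjusted p of up to 0.162.

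Il1r1 had slopes on the markers of the vessel wall and of astrocytes that passed the test. Its slope was 0.88 on the score of smooth muscle cells and pericytes (SE 0.21, adjusted p = 0.00973) and -1.47 on that of astrocytes (SE 0.43, adjusted p = 0.0133). The relation with the first score had r of 0.593 and rho of 0.626 over 35 arrays (permutation p = 0.00019 and 7e-05, adjusted 0.00019 and 9.33e-05), and r of 0.607 without the 2 farthest arrays. This relation too was called by the score fit on the same arrays, so its permutation p-values are not separate support. Within plate rows r was 0.689, 0.292, 0.854 and 0.191, so it was lower in rows F and H. The call was lost with the replicate number, which follows the plate rows, as a block (adjusted p = 0.0713), and held with the plate row as a factor (adjusted p = 0.0255). The astrocyte call was lost without TNF + IL-6 Low replicate 3 (adjusted p = 0.0627). On the pituitary score, which was highest on that same array, Il1r1 had a slope of 0.18 (SE 0.06, adjusted p = 0.409).

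**Figure D5:**
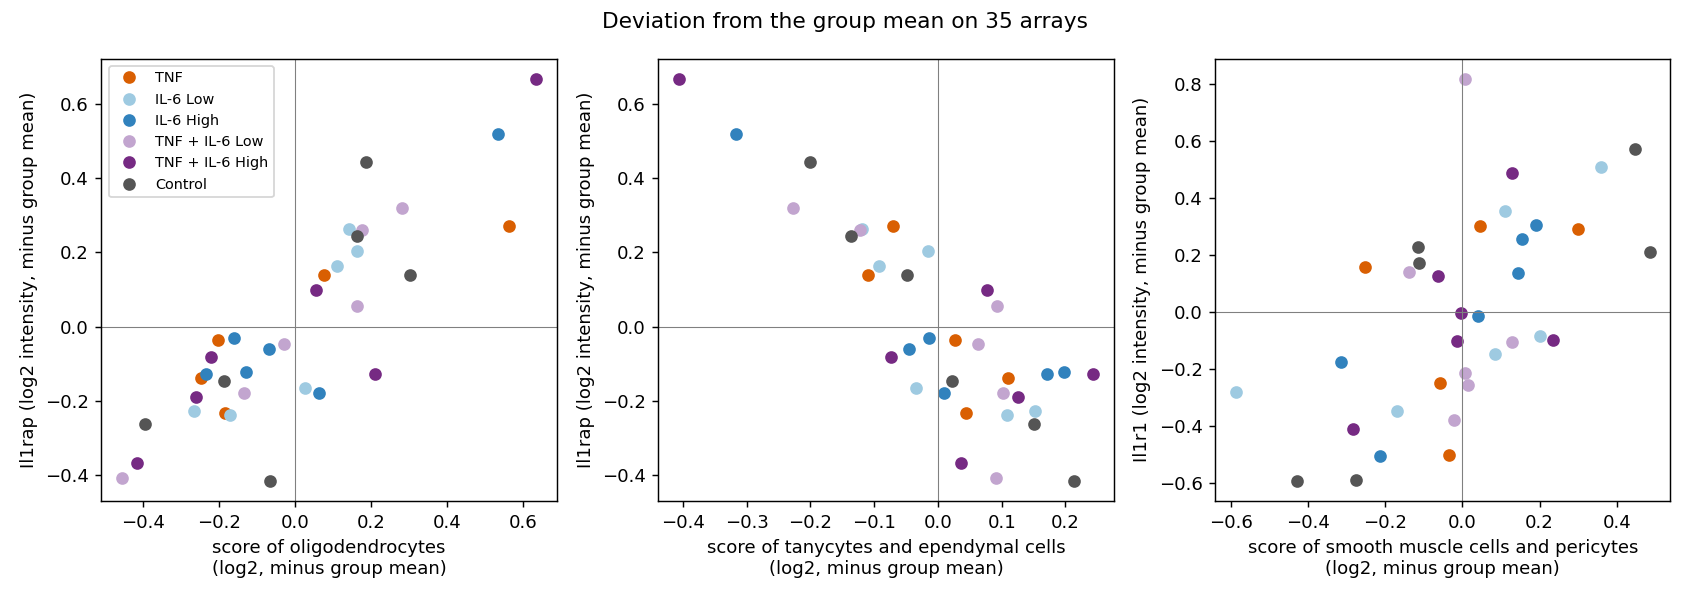
Il1rap against the scores of oligodendrocytes and of tanycytes and ependymal cells, and Il1r1 against that of smooth muscle cells and pericytes, each as log2 deviation from the group mean, with 1 point per array coloured by group. Pearson's r is 0.857, -0.849 and 0.593 over 35 arrays.

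The other 5 members moved with the score of 1 or 2 cell types. On the astrocyte score Il17rb had a slope of 0.84 (SE 0.23, adjusted p = 0.00795), Il4ra 0.66 (SE 0.21, adjusted p = 0.0193) and Il13ra1 0.64 (SE 0.20, adjusted p = 0.0178), while Il22ra1 had -0.77 (SE 0.21, adjusted p = 0.00810). Il17rb also moved with the oligodendrocyte score (slope 0.34, SE 0.11, adjusted p = 0.0327) and Il20rb against that of microglia and macrophages (slope -0.99, SE 0.35, adjusted p = 0.0394). The call of Il22ra1 held when any 1 array was left out, and the other calls did not. It was lost with each array centred on its median (adjusted p = 0.0748), with the mean of the gene's clusters (0.0726) and with the replicate block (0.0601). The astrocyte call of Il17rb was lost without TNF replicate 5 (adjusted p = 0.0591), that of Il4ra without TNF replicate 6 (0.0535), and that of Il13ra1 without TNF replicate 5 or TNF + IL-6 High replicate 1 (up to 0.109). The oligodendrocyte call of Il17rb was lost without TNF replicate 5, IL-6 High replicate 4, TNF + IL-6 High replicate 2 or TNF + IL-6 High replicate 5 (up to 0.190). That of Il20rb was lost without any 1 of 9 arrays, IL-6 Low replicate 4, IL-6 High replicate 2, TNF + IL-6 Low replicates 1, 4 and 5, TNF + IL-6 High replicates 1 and 6, and Control replicates 1 and 4 (up to 0.138).

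The members did not form pairs that varied together beyond the adjusted threshold. Of the 231 pairs of the 22 members 0 had an adjusted p under 0.05 and 28 an unadjusted one (permutation test on deviations from group means over 35 arrays), with r from -0.550 to 0.563 and a median of 0.0009. The share over pairs of all genes was not computed, so the 28 pairs are not to be read as a trait of the members. The highest r was that of Il17ra with Il17rb, 0.563 (rho 0.448, p = 0.00039, adjusted p = 0.0670). It was 0.524 without the 2 farthest arrays and 0.910, 0.272, 0.735 and 0.114 in the 4 plate rows. Il22ra1 and Il17rb had the lowest r, -0.550 (rho -0.516, p = 0.00058, adjusted p = 0.0670). Among chains of the same receptor, r was 0.345 for Il4ra with Il13ra1 (rho 0.281), 0.147 for Il17ra with Il17rc (rho 0.187), 0.0819 for Il1r1 with Il1rap (rho 0.0944) and 0.0427 for Il10ra with Il10rb (rho 0.0322). None of these 4 had an adjusted p under 0.05 (0.360 to 0.921).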

How the data were processed

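Hypothalamic RNA was hybridised to Affymetrix Mouse Gene 1.1 ST arrays, 1 array per mouse (6 of 12 mice per group in the study). The log2 intensities were used as deposited by the authors. They were made by RMA, with the version not given in sources used here. Of 35556 transcript clusters, 21218 have 1 symbol, 1881 several and 12457 none. Genes were named from clusters with 1 symbol, and each gene was represented by its cluster of highest mean.

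TNF replicate 4 was left out. The methods state that a TNF array was excluded, without naming it. Control replicates 5 and 6 carry a mouse number that differs from the one in their array name, and were kept as Control by title. Genes over an intensity of 20 on at least 3 arrays (15049) were fitted in 1 model of the 6 groups with limma 3.58.1 in R 4.3.3 (lmFit, eBayes with trend), with Benjamini-Hochberg adjustment over all of them. Score fits added the mean of a cell type's markers, centred within groups. They were run and adjusted over all tested genes, the markers included, and the markers of a list were left out only of the counts and shares of genes called. Correlations used deviations from group means and 100000 permutations, two-sided (numpy 2.4.6, scipy 1.17.1). The fits were run on simulated data with known changes, as a check of the code. Noise was drawn for each gene on its own, and the planted group changes were larger than any member's difference here. That check does not show how often changes of the size reported would be found.

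The members, gene lists and tests were chosen with earlier results of these data known. Every member was named, as were the 4 genes of smallest p per pathway list. More values were given for members at an unadjusted p under 0.05 in a group comparison, or of smallest p where there was none. These were values per array in TNF and the lowest, median and highest in the other groups. P-values measure the spread between mice, and the number of arrays limits the precision. Alternatives covered all 36 arrays, the intensity minimum, scaling, array weights, the groups in the fit, the trend, the replicate block, the plate row, the mean of a gene's clusters and leaving out each array.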

Additional observations from a re-analysis of the deposited data

Results flagged for a closer look

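In 8 of 132 groups of 5 or 6 arrays, 1 array of a tested member stood apart from the rest of its group by Dixon's test, where chance gives about 1 in 20. Il1rap was 8.37 on IL-6 High replicate 4, against 7.67 to 7.82 on the other IL-6 High arrays. Il1r2 was 4.58 on TNF replicate 5 (others 3.97 to 4.04), and Il17rb was 5.90 on the same array (others 5.33 to 5.47). Il17re was 4.48 on TNF + IL-6 Low replicate 2 (others 4.85 to 5.06) and 5.02 on TNF + IL-6 High replicate 6 (others 4.69 to 4.79). Il13ra1 was 6.35 on IL-6 Low replicate 4 (others 6.63 to 6.79), Il22ra1 was 5.43 on IL-6 High replicate 5 (others 4.76 to 4.95), and Il4ra was 5.68 on Control replicate 6 (others 5.95 to 6.10).

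On TNF replicate 4, which entered no comparison, all 35 members were over the minimum intensity, against 20 to 21 on the Control arrays. Il5ra, for instance, was 6.27 on that array and 2.40 to 3.04 on the 35 others, and Il1rap was 5.24 there, against 7.56 to 8.62 on the others. The lower quartile of TNF replicate 4 over all clusters, 5.49, was also over the minimum, so most clusters passed it there. The median correlation of TNF replicate 4 with other arrays was 0.27, against 0.972 to 0.988 for the 35 others. The share of all genes over the minimum on it was not computed, so the count is not a trait of the members.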

How the results depend on the processing

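The count of members called was 0 in all comparisons under each alternative, leaving out each array included (0 to 0). With all 36 arrays the median difference of the members in TNF was 0.14, against -0.02 without TNF replicate 4, and 15 members had a score called, against 7, of which 4 were shared. In that setting the slope of Il17rb reversed, to -0.085 on astrocytes and -0.026 on oligodendrocytes, and the tanycyte call of Il1rap was lost (adjusted p = 0.432). Arrays of the same replicate number share a plate row, and the labels name nothing else that they have in common. Arrays of the same number had a mean correlation of deviations of 0.0612 (-0.312 to 0.584), against -0.0121 for different numbers. Of the 35 arrays 14 correlated best with their own number, and the count that chance would give was not computed. Some shared variation by number is thus a hint from the data, and the main fit has no term for it. With the replicate block 0 members were called in any comparison and 5 had a score called, 4 of them shared; the call of Il1r1 on smooth muscle cells and pericytes was lost (adjusted p = 0.0713), as were those of Il22ra1, Il4ra and Il13ra1 on astrocytes and of Il1rap on endothelial cells. The plate row as a factor ended the last 3 of these. When 1 array was left out, 5 to 10 members had a score called. The share of all genes with a score called was not computed in any of these settings. Median centring or quantile normalization ended the calls of Il20rb, Il13ra1 and Il4ra and the oligodendrocyte call of Il17rb, and median centring the astrocyte call of Il22ra1, which the mean of a gene's clusters also ended, with that of Il20rb. With median centring 7 members had a score called, of which 4 were shared (Il17rb, Il1r1, Il1rap and Il22ra1, the last on another score). Il1rap and Il1r1 had a score called in every setting run. Score fits were not run with array weights, with only the groups compared or without the trend. The cause of these changes was not tested. The number of arrays limits the precision, which the printed intervals give.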
